A study of Homo sapiens with 4 samples.

Results

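The MYCN locus on the short arm of chromosome 2 was followed through 5 genes: MYCN, its antisense partner MYCNOS, and the flanking genes DDX1, NBAS and CYRIA, the last of which GENCODE 29 lists as FAM49A. They were taken by symbol, as MYCN and the neighbours that are often discussed with it, and matched to 5 of the 60671 gene IDs in the table of read counts. RNA came from SK-N-BE(2), an established human neuroblastoma line known for MYCN amplification. Of the 4 libraries, 2 came from cells with the control hairpin shNC and 2 from cells with shMETTL14, a hairpin against METTL14, whose protein works with METTL3 to write N6-methyladenosine (m6A) into RNA. The methods of the study describe lentiviral pLKO.1 hairpins and puromycin selection, which both groups would share, and list more than 1 METTL14 hairpin. The labels do not say which hairpin these libraries carried, nor whether replicates were separate cultures, so the p-values measure only the spread between these libraries, which may be technical. No time after infection is given in the labels.

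MYCN is a transcription factor of the MYC family that binds DNA as a dimer with MAX, and amplification of its gene is a classic marker of aggressive neuroblastoma. Because an amplified segment is usually wider than MYCN itself, neighbours such as DDX1 and NBAS can be carried along with it. MYCNOS is transcribed from the opposite strand and overlaps the start of MYCN. The libraries measured RNA only and do not give the number of copies of any gene, and in a bulk sample fewer cells with a transcript and less of it per cell cannot be told apart.

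In GENCODE 29 on GRCh38, the genes span 1.499 Mb of chromosome 2, in the order NBAS, DDX1, MYCNOS, MYCN and CYRIA. NBAS occupies positions 15166909 to 15561330 on the minus strand, and 29.9 kb separate it from DDX1, which runs from 15591178 to 15631111 on the plus strand. Another 309.5 kb lie between DDX1 and MYCN, which covers 15940564 to 15947007 on the plus strand with 3 exons. MYCNOS runs from 15921037 to 15942249 on the minus strand, and CYRIA lies 602.5 kb beyond MYCN, from 16549459 to 16666331 on the minus strand.

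The MYCN and MYCNOS exons share 98 bases, which are 3.77% of the MYCN exons and 4.06% of those of MYCNOS, and all of them are coding in MYCN. The shared stretch is shown because reads from it cannot be credited to a gene without knowing their strand, and the strand setting of the counting is not given in the sources used here. The 30 bases at chr2:15942220-15942249 read as follows on each strand of GRCh38.
MYCN, plus strand: gtttgagctgctgcccacgcccccgctgtc
MYCNOS, minus strand: gacagcgggggcgtgggcagcagctcaaac

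A further 467 bases of MYCNOS exon, or 19.4%, lie within MYCN introns, and 1848 bases, or 76.6%, lie outside the MYCN gene. Without knowing their strand, reads from MYCN precursor RNA and reads from MYCNOS therefore cannot be told apart over 23.4% of the MYCNOS exon bases.

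METTL14 complexes methylate adenosines in a short sequence context of which GGACT, written as DNA, is a much used form. The word was searched on the sense strand of the 2602-base transcript MYCN-201, and it occurred 3 times. All of these lie in coding sequence, the first and second in exon 2 and the last in exon 3, ending 3 bases before the stop codon. They are shown with up to 8 bases on either side and the word in capitals, from the GRCh38 transcripts of GENCODE 29.
MYCN exon 2, chr2:15942357-15942377, plus strand: gcctggggGGACTgggtggcc
MYCN exon 2, chr2:15942395-15942415, plus strand: atcctccaGGACTgcatgtgg
MYCN exon 3, chr2:15946079-15946097, plus strand: acacgctcGGACTtgctag

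The word is common. It occurred in 92.5% of the 12788 protein-coding genes tested, with a median of 0.926 words per kb of transcript, against 1.15 in MYCN, 1.10 in NBAS, 0.857 in CYRIA, 0.762 in MYCNOS and 0.355 in DDX1. These counts of letters are not measurements of methylation, which these libraries do not contain.

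The libraries held 18925786 to 19886214 counts in genes. METTL14 itself had 753 and 754 counts in the shNC libraries and 303 and 321 in the shMETTL14 libraries. Both knockdown libraries were far below both controls, as their labels say, with a log2 fold change of -1.26 (SE 0.0832, edgeR adjusted p = 3.6e-11), or 41.7% of the control level. Across all genes tested with edgeR, 52.5% were called at an adjusted p under 0.05, 27.2% as higher and 25.3% as lower in shMETTL14. The higher genes made up 51.8% of calls, but 41.7% with upper quartile scaling, which shifted the median over all genes by -0.0676 on the log2 scale. Markers of neuroblastoma were present, with all 10 at 10 counts or more in every library, and their summed level was 3242 to 3337 CPM in shNC and 2582 to 2583 CPM in shMETTL14. They did not all fall, since ISL1 was called as higher (log2 0.28) and the others as lower. Of 7 mesenchymal markers, 6 reached 10 counts in every library (summed 453 to 456 CPM in shNC and 415 to 425 CPM in shMETTL14), while PRRX1 had 0 to 3 counts and LUM had 4552 to 4896. The summed levels in shNC and shMETTL14 were 4.64 to 5.06 and 3.37 to 3.84 CPM for Schwann cell markers, 2.00 to 2.40 and 1.71 to 2.14 for blood cell markers, and 5.58 to 6.06 and 2.91 to 3.77 for epithelial markers, and SOX10, HBA1 and CDH1 had 0 or 1 count. The part of these marker differences in the results on the locus was not tested.

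MYCN and MYCNOS were higher after METTL14 knockdown, NBAS and CYRIA were lower, and DDX1 was not called. In numbers, 4 of the 5 genes were called, 2 in each direction, beside 52.5% of all genes tested. CYRIA entered the test only through the shNC libraries, where it was high enough, so this count is a description.

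**Figure D1:**
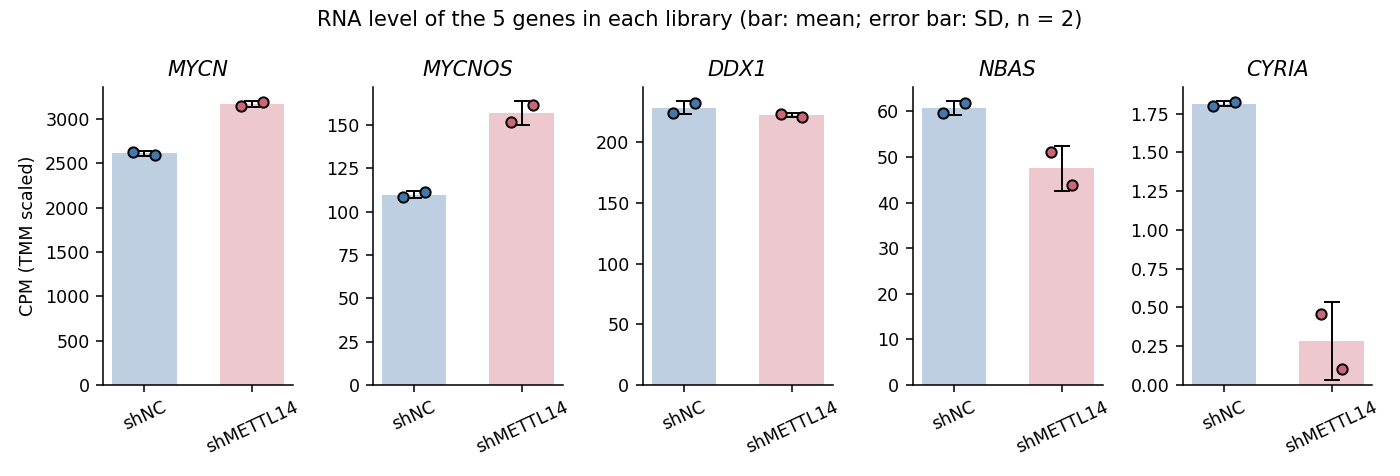
Expression of MYCN, MYCNOS, DDX1, NBAS and CYRIA in CPM (counts scaled by library size with TMM), each on its own linear axis from 0. Points are the libraries, bars the means of 2 libraries and error bars the SD. MYCN rose from a mean of 2612 to 3169 CPM and MYCNOS from 110 to 157 CPM, while the DDX1 means were 228.5 and 222.5 CPM and those of NBAS and CYRIA fell.

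MYCN had 52554 and 49710 counts in shNC and 61727 and 61457 counts in shMETTL14. As CPM (counts scaled by library size with TMM), these were 2632 and 2592 in shNC and 3148 and 3189 in shMETTL14. The knockdown libraries lay together above the control libraries with a wide gap between the groups. The means were 2612 ± 28.6 and 3169 ± 28.7 CPM (SD, n = 2 each), a 1.21-fold rise (log2 0.28, SE 0.0334, edgeR adjusted p = 3.8e-07). This rise was small beside many others, since 24.5% of the genes tested had a higher log2 fold change.

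Few genes in these cells had as much RNA as MYCN. Its reads made up 0.268% and 0.263% of all gene counts in shNC and 0.310% and 0.314% in shMETTL14, which ranked it 18 and 19 among all genes by count in the controls and 14 in both knockdown libraries. Per kb of merged exon it stood at 1004 CPM in shNC and 1218 CPM in shMETTL14. Only 0.13% of the genes tested had more reads per kb in the controls. Its nearest neighbour above it was HSP90AB1, a cytosolic chaperone, at 1038 CPM per kb, and the one just below was PTMA, which encodes prothymosin alpha, at 946 CPM per kb. Both of these have processed pseudogenes, so their own counts are less certain.

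MYCNOS, the antisense transcript, had 2164 and 2133 counts in shNC and 2981 and 3117 in shMETTL14. In CPM these were 108.4 and 111.2 against 152.0 and 161.7, so that each knockdown library was above each control. The rise from 110 ± 2.00 to 157 ± 6.86 CPM (SD, n = 2 each) was 1.43-fold (log2 0.51, SE 0.0456, edgeR adjusted p = 4.1e-09). MYCNOS therefore moved in the same direction as the gene it overlaps, and the limits on telling their reads apart apply to both values.

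DDX1 encodes a DEAD-box RNA helicase that takes part in tRNA splicing with the tRNA ligase complex. It had 4485 and 4455 counts in shNC and 4388 and 4263 in shMETTL14, or 224.7 and 232.3 against 223.8 and 221.2 CPM. The lower control and the higher knockdown library were almost level. The log2 fold change of -0.04 (SE 0.0402) was within the error of the fit (edgeR adjusted p = 0.446). With upper quartile scaling the value was -0.11 and the adjusted p 0.032 by edgeR, so whether DDX1 is called depended on the scaling.

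NBAS encodes a protein of the tether that receives Golgi-derived vesicles at the endoplasmic reticulum, and it also has a role in nonsense-mediated decay of RNA. Its counts were 1189 and 1184 in shNC and 1000 and 847 in shMETTL14, which are 59.6 and 61.7 against 51.0 and 44.0 CPM. The groups did not overlap, although the knockdown libraries differed more from each other than the controls did. The level fell to 78.3% of the control (log2 -0.35, SE 0.0663, edgeR adjusted p = 0.00012).

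CYRIA encodes a RAC1-binding protein that restrains the WAVE complex, which drives branched actin at the cell edge. It had 36 and 35 counts in shNC and 9 and 2 in shMETTL14, or 1.80 and 1.83 against 0.459 and 0.104 CPM. It was thus scarce in the controls and close to the limit of detection in the knockdown, where 3 counts were taken as the floor. Summed over libraries, 71 counts stood against 11, and the scaled level in shMETTL14 was 15.6% of that in shNC, with an exact 95% interval of 7.45% to 29.6% that covers counting error only. The fit gave -2.65 on the log2 scale (SE 0.488, edgeR adjusted p = 9.3e-05), but it was -4.04 without shMETTL14 library 1 and -1.96 without shMETTL14 library 2. Because CYRIA entered the test only through the shNC libraries, its p-value is a description and not support for a fall.

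Per kb of merged exon, the order of the levels in shNC was MYCN, DDX1 at 58.6 and 60.6 CPM, MYCNOS at 44.9 and 46.1 CPM, NBAS at 6.66 and 6.90 CPM, and CYRIA at 0.331 and 0.335 CPM. In shMETTL14, MYCNOS stood above DDX1, with levels of 63.0 and 67.0 CPM per kb against 58.4 and 57.7. MYCN was at 1210 and 1226, NBAS at 5.70 and 4.91, and CYRIA at 0.0843 and 0.0191 CPM per kb there. No neighbours in either order overlapped between libraries, but the gap between DDX1 and MYCNOS was narrow, and the merged exon lengths of 3833 and 2413 bases depend on the transcripts in the annotation.

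Setting each gene against MYCN in the same library removes the scaling between libraries. For each 100 MYCN reads there were 8.53 and 8.96 DDX1 reads in shNC and 7.11 and 6.94 in shMETTL14, a log2 difference of -0.32. For NBAS there were 2.26 and 2.38 in shNC and 1.62 and 1.38 in shMETTL14, a log2 difference of -0.64. For MYCNOS there were 4.12 and 4.29 in shNC and 4.83 and 5.07 in shMETTL14, a log2 difference of 0.24. In these libraries the genes of the locus therefore did not move by a common factor. This describes the values, and a cause was not tested. The ratio of CYRIA to MYCN differed by -3.33 on the log2 scale, from 0.0685 and 0.0704 reads to 0.0146 and 0.00325 reads for each 100 of MYCN. The two-sided exact permutation p was 0.33 for each of the 4 ratios and after adjustment over them, the smallest that 2 libraries against 2 can give.

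**Figure D2:**
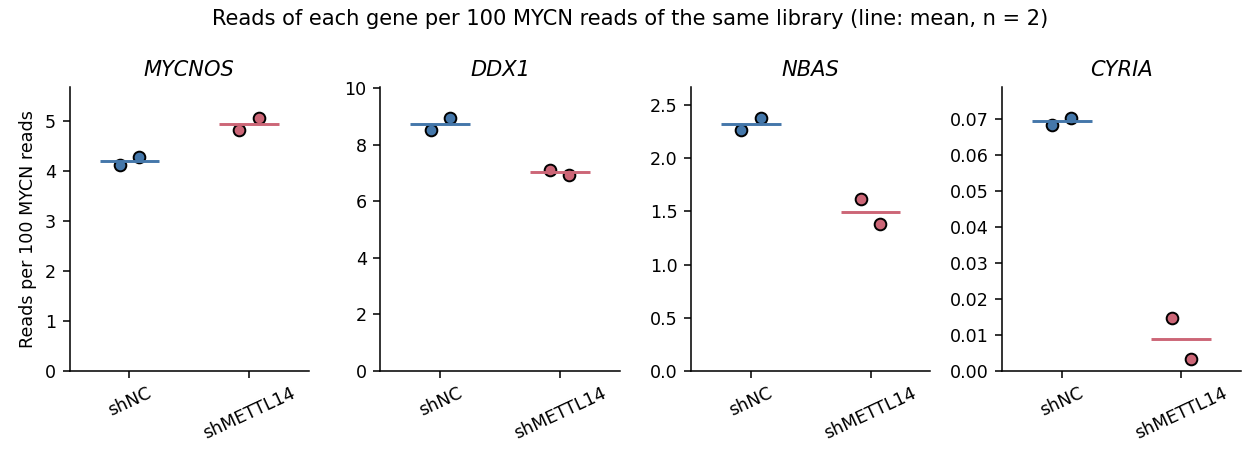
Reads of MYCNOS, DDX1, NBAS and CYRIA for each 100 MYCN reads of the same library, on linear axes from 0. Points are the libraries and lines the means of 2 libraries. The ratio was higher in shMETTL14 for MYCNOS (4.83 and 5.07 against 4.12 and 4.29) and lower for the others.

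The region around the genes was then examined, from 5 Mb before MYCN to 5 Mb after it. It holds 126 other annotated genes, of which 57 had 0 counts in every library and 34 could be tested. Of these 34, 19 were called, or 55.9%, beside 52.5% of all genes. The called genes were 4 higher and 15 lower, and the median log2 fold change was -0.19, against -0.00095 over all genes tested. That median includes 7 genes that reached the filter's level in both libraries of shNC only, and 2 in those of shMETTL14 only. The filter thus favoured a lower median. Of the 15 lower genes, 3 (RAD51AP2, WDR35-DT and AC012065.4, the last pair named after their values were seen) reached the filter's level of 0.51 CPM in both libraries of shNC only, so that the filter favoured a lower call for them. With at least 10 counts required in every library, 25 were tested, and 3 were higher and 12 lower (median -0.20). Over all genes that setting called 8127 of 14769. With no filter 69 were tested, and 3 were higher and 11 lower (median -0.12), beside 7996 called of 31490 genes in all.

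Between NBAS and CYRIA, besides the named genes, 8 of 23 annotated genes were tested and none of the 8 is protein coding. The 3 that were called, or 37.5% beside 52.5% of all genes tested, were all lower. AC010745.2, a non-coding gene with the identifier ENSG00000228876, had 1521 and 1345 counts in shNC and 533 and 540 in shMETTL14, so that the knockdown libraries were far below the controls (log2 -1.41, SE 0.0657, edgeR adjusted p = 1.4e-13). AC130710.1 (ENSG00000236989) had 109 and 114 against 42 and 33 counts (log2 -1.56, edgeR adjusted p = 2.6e-06), and it overlaps in position with GACAT3 on the other strand, whose 102 and 95 against 73 and 94 counts were not called. AC010745.1, given because it is the remaining one of the 3 and not by the rule for naming genes, had a log2 fold change of -0.19 (edgeR adjusted p = 0.034). MYCNUT, a transcript upstream of MYCN, had 0 counts in all libraries.

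Beyond CYRIA, 18 genes were tested, and 13 were called, 2 higher and 11 lower, beside 27.2% and 25.3% of all genes tested, with a median log2 fold change of -0.24. The 3 lower genes that passed the filter only through shNC are among these 11. LINC01376, named for this reason, passed in the same way and was not called. All of them enter the median of -0.24. VSNL1, which encodes the neuronal calcium sensor visinin-like 1, had 801 and 731 counts in shNC and 147 and 137 in shMETTL14. Neither knockdown library came near the controls (log2 -2.42, SE 0.0959, edgeR adjusted p = 9.9e-15). RAD51AP2 was lower on few counts, with 28 and 34 against 7 and 13 (log2 -1.61, edgeR adjusted p = 0.00293), and it was not called without shMETTL14 library 1 (log2 -1.22, adjusted p = 0.0531) or with DESeq2 (adjusted p = 0.0537).

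On the NBAS side, 8 genes were tested and 3 were called, or 37.5% beside 52.5% of all genes tested. Of these, 2 were higher and 1 lower, and the median log2 fold change of the 8 was 0.08. TRIB2, which encodes a pseudokinase, rose from 1656 and 1520 to 2770 and 2780 counts (log2 0.82, edgeR adjusted p = 3.0e-12). E2F6, a repressor of the E2F family, rose from 466 and 439 to 633 and 584 counts (log2 0.44, edgeR adjusted p = 9.3e-05).

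Of 19 genes of the short arm of chromosome 2 listed by hand, 13 were tested and 69.2% of these called, beside 52.5% of all genes tested. In this list 3 were higher and 6 lower, with a median of -0.18. Most of the genes lie within the same window, so these counts largely repeat those above, including RAD51AP2. ALK, a receptor tyrosine kinase gene of the same arm that is mutated in some neuroblastomas, is outside the window, and so is ODC1.

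**Figure D3:**
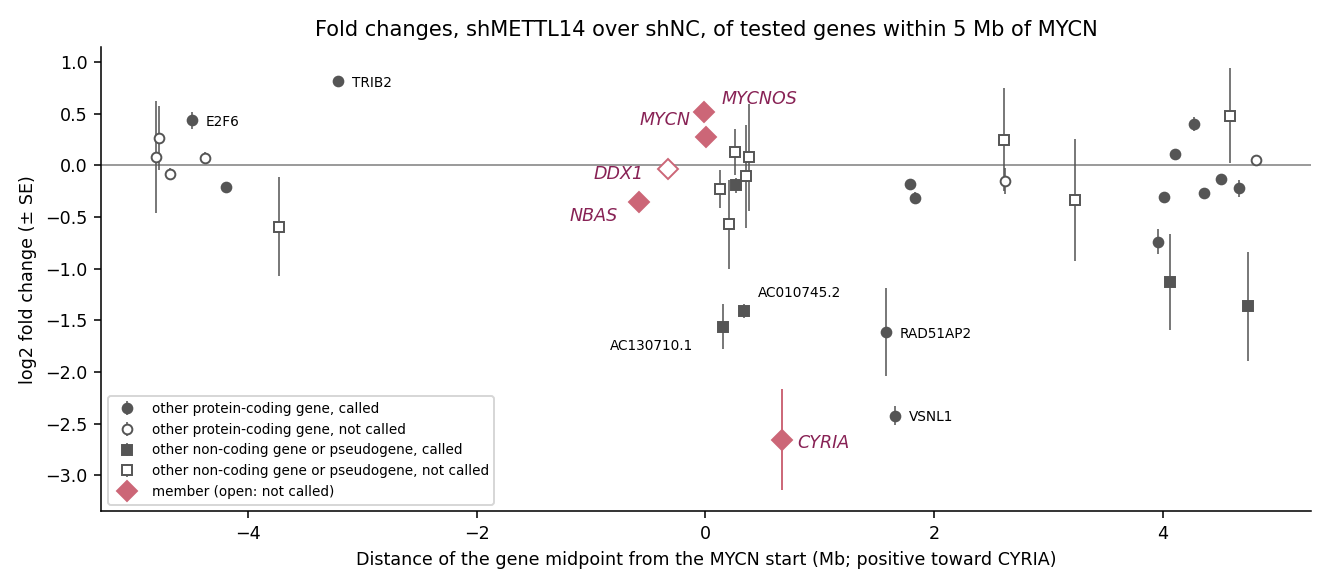
Log2 fold changes (shMETTL14 over shNC, with SE) of the tested genes within 5 Mb of MYCN, by the distance of each gene's midpoint from the MYCN start in Mb. Diamonds are the 5 genes of the locus, other symbols the 34 other genes tested, and open symbols were not called. MYCNOS and MYCN lie above 0 (0.51 and 0.28), NBAS and CYRIA below it (-0.35 and -2.65), and 15 of the 19 other genes called are below 0.

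Over the 4 libraries, the genes whose centred log2 CPM lay closest to that of MYCN were PES1, NR4A1, ISL1, SMAD4 and HMGN3, at Euclidean distances of 0.00553, 0.00857, 0.00938, 0.0105 and 0.0111 among the 6421 genes compared. With 4 libraries in 2 groups, such closeness mostly says that the fold change was alike. The genes of the locus that were compared lay farther away, and CYRIA was too low to be compared. MYCNOS stood at a distance of 0.244 with 2850 genes nearer, DDX1 at 0.322 with 3717 nearer, and NBAS at 0.658 with 5804 nearer.

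The RNA of proteins that act on or with MYCN was examined next. In the MYCN promoter, the words TTTGGCGC and TTTCGCGC, forms of the E2F site, were searched on both strands of the RefSeq windows of 300 bases around gene starts (GRCh38.p14). Both were found in the MYCN window, overlapping each other, and they are shown because the RNA of E2F genes was measured in the same libraries. The capitals mark both words, 176 bases before the RefSeq start of MYCN.
MYCN promoter, chr2:15940365-15940394, plus strand: caagtggctTTTGGCGCGAAAgccttggcg

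These words occur in 0.652% and 0.515% of the 35116 RefSeq promoters, and in none of the windows of MYCNOS, DDX1 and NBAS. The word CACGTG, a binding word of MYC proteins that 7.26% of promoters hold, was not in the windows of these 4 genes. A match is only a match of letters. E2F1 had 1022 and 906 counts in shNC and 1578 and 1642 in shMETTL14, a log2 rise of 0.75 (edgeR adjusted p = 3.6e-10). E2F2 rose by 0.39 (edgeR adjusted p = 3.2e-06).

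Of 13 genes for factors that act on MYCN transcription, 92.3% were called, beside 52.5% of all genes tested. In numbers, 5 were higher and 7 lower, with a median of -0.14. The factors of this list thus moved in both directions while MYCN was higher.

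Among 9 genes for proteins that bind or regulate MYCN RNA, 6 were tested and 66.7% of them called, beside 52.5% of all genes tested. Of the 6, 4 were higher and 0 lower, with a median of 0.16. With upper quartile scaling 3 were higher and 1 lower (median 0.09). LIN28B, which blocks maturation of the let-7 microRNAs that target MYCN, rose by 0.32 (edgeR adjusted p = 3.5e-05). The genes for the RNA-stabilizing proteins ELAVL1 and ELAVL4 rose by 0.26 and 0.19 (edgeR adjusted p = 5.2e-05 and 4.1e-04). PTBP1, a splicing regulator, had a value of 0.13 (edgeR adjusted p = 0.00521) that was not called with upper quartile scaling (adjusted p = 0.16) or with library size alone (adjusted p = 0.0562).

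Of 12 genes for partners and turnover factors of the MYCN protein, 6 were higher and 4 lower, with a median of 0.14 (0.07 with upper quartile scaling). The share called was 83.3%, beside 52.5% of all genes tested. MAX, the obligate partner, fell by 0.17 (edgeR adjusted p = 0.00436), a call that DESeq2 did not make (adjusted p = 0.0845). PLK1, a mitotic kinase, fell by 0.31 (edgeR adjusted p = 4.2e-06), and FBXW7, the ubiquitin ligase subunit that marks MYCN for destruction, rose by 0.33 (edgeR adjusted p = 2.8e-04). WDR5, a chromatin cofactor, rose by 0.34 (edgeR adjusted p = 8.0e-05). ZBTB17, through which MYC proteins repress genes, rose by 0.26 (edgeR adjusted p = 0.00358, but 0.0513 with DESeq2).

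Among 30 genes known to be activated by MYCN or MYC, 29 were tested and 65.5% of them called, beside 52.5% of all genes tested. Of the 29, 15 were higher, 4 lower and 10 not called, with a median of 0.11. This balance depended on the scaling, with 10 higher and 8 lower (median 0.05) by upper quartile and 10 and 7 (median 0.07) by library size alone. NME1, a nucleoside diphosphate kinase gene, rose by 0.94 (edgeR adjusted p = 9.5e-10), from 1436 and 1336 to 2325 and 2957 counts, and it neighbours the closely similar NME2. SRM, the spermidine synthase gene, rose by 0.71 (edgeR adjusted p = 3.1e-11), and the cell cycle kinase gene CDK4 by 0.52 (edgeR adjusted p = 3.9e-10). TFAP4, a direct target that encodes a transcription factor, fell by 0.55 (edgeR adjusted p = 1.7e-06).

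Among 9 genes known to be repressed, 8 were tested, and 3 were higher and 4 lower, with a median of -0.16 that was 0.01 with no filter on low counts. The share called was 87.5%, beside 52.5% of all genes tested. NDRG1, a differentiation-associated gene, fell from 227 and 210 to 61 and 69 counts (log2 -1.74, edgeR adjusted p = 4.3e-09). NGFR, the low-affinity neurotrophin receptor, fell by 0.99 (edgeR adjusted p = 5.8e-12), whereas the transglutaminase gene TGM2 rose by 1.27 (edgeR adjusted p = 6.4e-04). The targets are a hand list, and MYCN binding was not measured.

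The partners of the flanking genes were read in the same way. Of 5 genes for the tRNA ligase complex that DDX1 joins, 60% were called, beside 52.5% of all genes tested. In this list 3 were higher and 0 lower, with a median of 0.35, and 1 was lower with upper quartile scaling or library size alone. RTCB, the catalytic ligase, was not called (log2 0.08, edgeR adjusted p = 0.153). FAM98A rose from 1193 and 1060 to 2087 and 2055 counts (log2 0.89, edgeR adjusted p = 4.7e-12), ZBTB8OS, which encodes the archease cofactor, by 0.62 (edgeR adjusted p = 1.2e-06), and RTRAF by 0.35 (edgeR adjusted p = 2.7e-07). These calls stood beside a DDX1 level that was not called.

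Of 16 genes for NBAS partners in the vesicle tether and in nonsense-mediated decay, 5 were called, or 31.25%, beside 52.5% of all genes tested. Of these, 2 were higher and 3 lower, and the list median was 0.01. The median was -0.06 with upper quartile scaling, where 1 was higher and 6 lower, and -0.04 with library size alone, where 2 were higher and 6 lower. The tether subunits RINT1 and ZW10 had values of 0.06 and -0.12 and were not called (edgeR adjusted p = 0.529 and 0.0779), although ZW10 was called as lower with upper quartile scaling (adjusted p = 0.00849). SEC22B, a vesicle SNARE gene, rose by 0.21 (edgeR adjusted p = 6.8e-04), and SMG1, the kinase of nonsense-mediated decay, fell by 0.20 (edgeR adjusted p = 5.3e-04). SCFD1 and UPF2 had values of 0.19 and -0.16 (edgeR adjusted p = 0.00618 and 0.0156), and neither was called by DESeq2 (adjusted p = 0.0792 and 0.163) or without shMETTL14 library 2 (adjusted p = 0.0779 and 0.077). UPF2 was not called either without shMETTL14 library 1 (adjusted p = 0.0625) or without shNC library 1 (adjusted p = 0.199). The count for this list was 3 without shNC library 1 and 2 without shMETTL14 library 2.

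Of 11 genes around CYRIA, namely its paralog, RAC1 and subunits of the WAVE complex, 81.8% were called, beside 52.5% of all genes tested. The split was 6 higher and 3 lower, with a median of 0.15. With upper quartile scaling the split turned to 4 higher and 5 lower (median 0.08), and with library size alone it was 5 and 4. CYRIB, the paralog, had 1871 and 1837 counts in shNC and 2544 and 2367 in shMETTL14, so that both knockdown libraries were higher, and it rose by 0.41 (edgeR adjusted p = 1.4e-07) where CYRIA fell. Per kb of exon, CYRIB stood at 10.4 CPM in shNC and 13.8 CPM in shMETTL14. RAC1, the small GTPase, rose by 0.48 (edgeR adjusted p = 1.4e-09), CYFIP2 by 0.53 (edgeR adjusted p = 2.4e-07) and BRK1 by 0.40 (edgeR adjusted p = 1.9e-07). NCKAP1 and WASF3 were the other genes called as higher, and WASF2, ABI1 and ABI2 were lower, all named to complete the list after their values were seen.

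**Figure D4:**
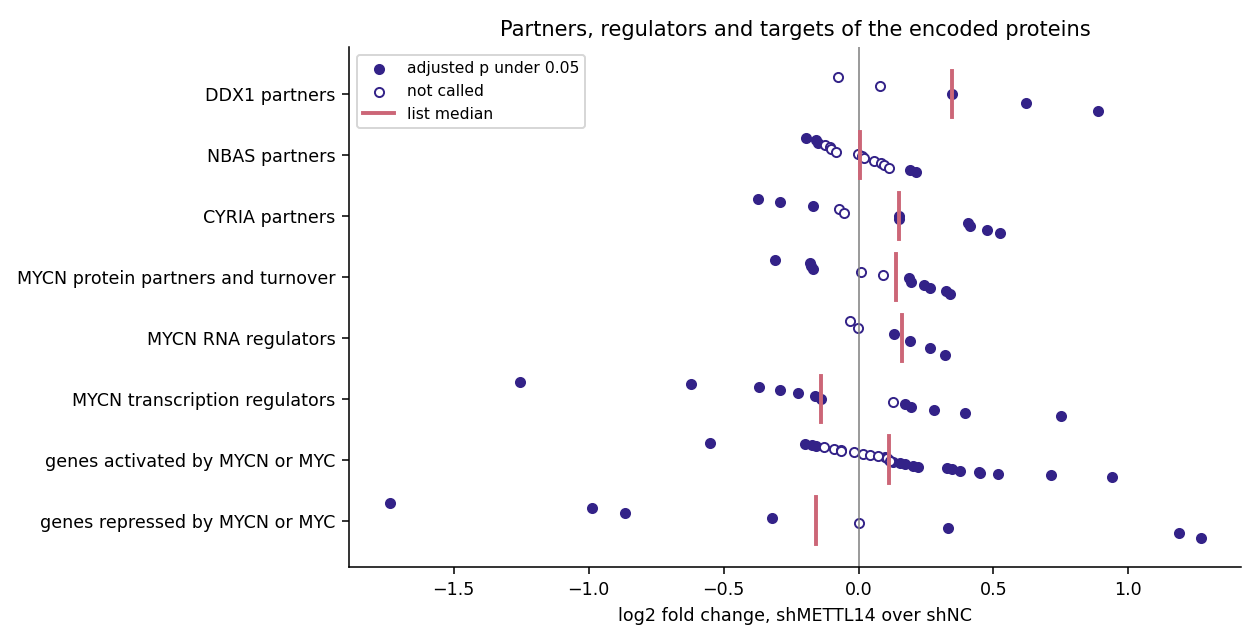
Log2 fold changes (shMETTL14 over shNC) of the tested genes of 8 hand-made lists, one gene per point, filled where the edgeR adjusted p was under 0.05 and open where not called. Vertical lines are list medians, from 0.35 for the DDX1 partners to -0.16 for genes repressed by MYCN or MYC.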

How the data were processed

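The authors deposited unnormalized read counts by Ensembl identifier for the 4 libraries. The submitters' processing notes name HISAT2 2.1.0, StringTie 1.3.6, HTSeq 0.13.5, edgeR and the build GRCh38 (hg38), and the strand setting and annotation release are not given in the sources used here. Lines that name no gene (19.1% to 19.9% of all counts, with ambiguous reads alone 5.01% to 5.32% of all counts) were left out. Symbols, exon lengths and positions came from GENCODE 29, which held 58453 of the 60671 IDs.

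Counts were tested with edgeR 4.0.16 in R 4.3.3 (quasi-likelihood F-test, TMM, filterByExpr defaults, no covariates), which kept 16309 genes, and p-values were adjusted by Benjamini-Hochberg over all of them. Standard errors were derived from the F statistic. The biological coefficient of variation was 3.45%. Intervals and floors cover counting error only. Alternatives were RLE, upper quartile and library size scaling, a minimum of 10 counts in every library, no filter, DESeq2 1.42.0, the replicate number as a block, and leaving out each library.

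The members, lists and tests were chosen with earlier results of these data known. Named genes are the members, METTL14, up to 4 called genes with the largest change in each list and in the window, 6 fixed partners, the 5 genes most like MYCN, and genes next to it in level; some genes that this rule names are not reported here. A gene is "most like" by the Euclidean distance of centred log2 CPM, among genes whose log2 CPM averaged 5 or more.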

Additional observations from a re-analysis of the deposited data

How the results depend on the processing

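Across the 11 alternatives, MYCN, MYCNOS, NBAS and CYRIA kept their direction and call wherever they were tested, and CYRIA could not be tested with a minimum of 10 counts in every library. The call of CYRIA is a description, since it passed the main filter only through shNC. Leaving out 1 library gave ranges of 0.27 to 0.29 for MYCN, 0.48 to 0.56 for MYCNOS, -0.07 to -0.01 for DDX1, -0.46 to -0.24 for NBAS and -4.04 to -1.96 for CYRIA. Scaling moved MYCN and MYCNOS below these ranges. Upper quartile scaling gave 0.21 for MYCN and 0.45 for MYCNOS, and library size alone gave 0.23 and 0.47. DDX1 was called with upper quartile scaling alone, at -0.11. The count of NBAS partners called, 5, was 8 with library size alone, 2 with DESeq2 and 2 to 5 with 1 library left out. DESeq2 called 5538 genes in all, against 8561. RINT1 turned to -0.0092 with upper quartile scaling and was called in neither case. Of the 46 named genes, 8 changed call or direction under some alternative. No pairing by replicate number was detected (correlation of deviations from group means -0.0018). This value cannot show whether same-numbered libraries were prepared together, and the labels do not say. With the number as a block MYCN had 0.28, MYCNOS 0.51, DDX1 -0.04, NBAS -0.35 and CYRIA -2.68, with 4 members and 8926 genes called. With 2 libraries a group, every call rests on the variance that edgeR shares across genes, and the low counts of CYRIA limit the size of its change.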
